A study of Mus musculus with 30 samples.

Results

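The assembled transcripts described here are rows of a transcript-level table whose identifiers start with MERGE and carry no name from the reference annotation. A MERGE identifier has a locus number and then a row number, so that MERGE.204.27 is the row numbered 27 of locus 204. The members are the MERGE rows listed in all 30 libraries, and they number 11443 of the 39267 rows listed in all 30. The other 27824 rows of that set are annotated transcripts, and 15408 MERGE rows appear in at least 1 library. The files give neither coordinates nor sequences for MERGE rows. Whether a given row lies between genes, in an intron, antisense to a gene or over an unlisted splice form of a known gene was therefore not determined, and no sequence or genome position of a MERGE row is shown.

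Assemblers join aligned reads into transcript models and merge the models of many libraries into one catalogue. Models that match no annotated transcript get a number in place of a name, and they can include long non-coding RNAs, unspliced precursors, alternative first or last exons, and fragments of abundant RNAs. Quantifiers then divide the reads of a locus among all its overlapping models, so closely similar models compete for the same reads. Ribosomal RNA depletion, unlike poly(A) selection, leaves RNAs without a poly(A) tail in the library. Where a library kit does not keep the strand of a read, reads from a gene and from an antisense partner cannot be told apart.

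Total RNA from abdominal aortas, depleted of ribosomal RNA, was sequenced in 6 groups of 5 libraries, all from C57BL/6 mice of wild-type (WT) genotype. Control mice received saline for 28 days. All other mice received angiotensin II, a vasoconstrictor peptide that raises blood pressure, at 500 ng/kg/min for 28 days. The AngII group received nothing else. AngII+ETH mice also received ethoxysanguinarine, AngII+BAI mice baicalin and AngII+GAS mice gastrodin, each at 5 mg/kg/d, and AngII+VAL mice received valsartan, an angiotensin receptor blocker, at 10.4 mg/kg/d. The Control mice thus differ from the compound groups in the peptide as well as the compound, and each compound group was compared with AngII. The labels name no animal for a library, so p-values measure the spread between these libraries, which may be partly technical. Levels are FPKM, fragments scaled to transcript length and library size, and the value of 1 read recovered from the low values put the libraries at 69.8 to 80.8 M reads.

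The libraries carried the marker RNAs of aortic smooth muscle throughout, with Acta2, smooth muscle actin, at group means of 3652 to 4476 FPKM. A mean of log2(FPKM + 1) over 7 smooth muscle markers ran from 6.79 to 9.14 across libraries and was lowest in AngII+BAI 3. Fat markers were also high, with Ucp1, of the brown adipocyte list, at group means of 1136 to 2297 FPKM. The mean of the brown adipocyte markers ran from 5.07 to 7.55 across libraries. Markers of some other tissues varied more. AngII 1, 4 and 5 had a mean of 12 neuron markers of 5.41, 3.75 and 5.84, against 0.836 and 0.959 in the other AngII libraries. For skeletal muscle, 8 of 10 markers were listed, and their mean was 5.39 to 6.83 in AngII+VAL against 0.879 to 2.79 in AngII. High values were not confined to AngII+VAL, with 5.70 and 6.85 in Control 1 and 2, 6.34 in AngII+ETH 1 and 6.25 in AngII+BAI 3. The mean of macrophage markers was highest in AngII+BAI 3 and 5, at 7.43 and 6.88. The library AngII+BAI 1 stood apart, with 4100 MERGE rows (35.8%) and 3932 annotated rows at 0. In the other 29 libraries 1476 to 2648 MERGE rows and 953 to 2329 annotated rows were at 0. In bulk tissue, fewer cells of a type and less RNA per cell cannot be told apart.

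A rule on low levels, read from the values and not from a label, shaped the set. Every row listed for Control and AngII reached a mean of 0.5 FPKM in at least 1 of these groups, and every row listed for a compound group reached it in that group or in AngII. Membership in all 30 libraries is therefore secured by AngII alone, and other groups secure it only together. Only 218 of the 11443 MERGE rows had an AngII mean under 0.5 FPKM, whereas 4526 (39.6%) had a mean under 0.5 FPKM in some other group. The corresponding numbers for annotated transcripts were 269 and 7749 (27.9%) of 27824. A row that is high in AngII and absent elsewhere is kept by this rule, and a row high in only 1 compound group is not, so counts of MERGE rows higher in AngII give no support to a general direction.

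MERGE rows were longer and lower than annotated transcripts. Lengths were recovered for 11442 MERGE rows from the size of the step that 1 read makes in the FPKM value. The same procedure returned the exact GENCODE M21 length for 1879 of 2000 annotated transcripts, and 1897 were within 1%. It takes the smallest length that fits. Where every library holds many reads of a row, the fit is loose and the recovered length can be too short. The median MERGE length was 2821 nt with quartiles of 1484 and 4730 nt, against a median of 2073 nt (quartiles 918 and 3533 nt) for annotated transcripts. The median over rows of the mean FPKM was 1.36 for MERGE rows and 1.88 for annotated transcripts, and the 95th percentiles were 13.0 and 35.6 FPKM. A total of 4235 MERGE rows (37.0%) averaged under 1 FPKM, 5531 (48.3%) between 1 and 5 FPKM, and 62 reached 100 FPKM. Reads per row were alike, with a median of 330 reads for MERGE rows and 325 for annotated transcripts.

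**Figure D1:**
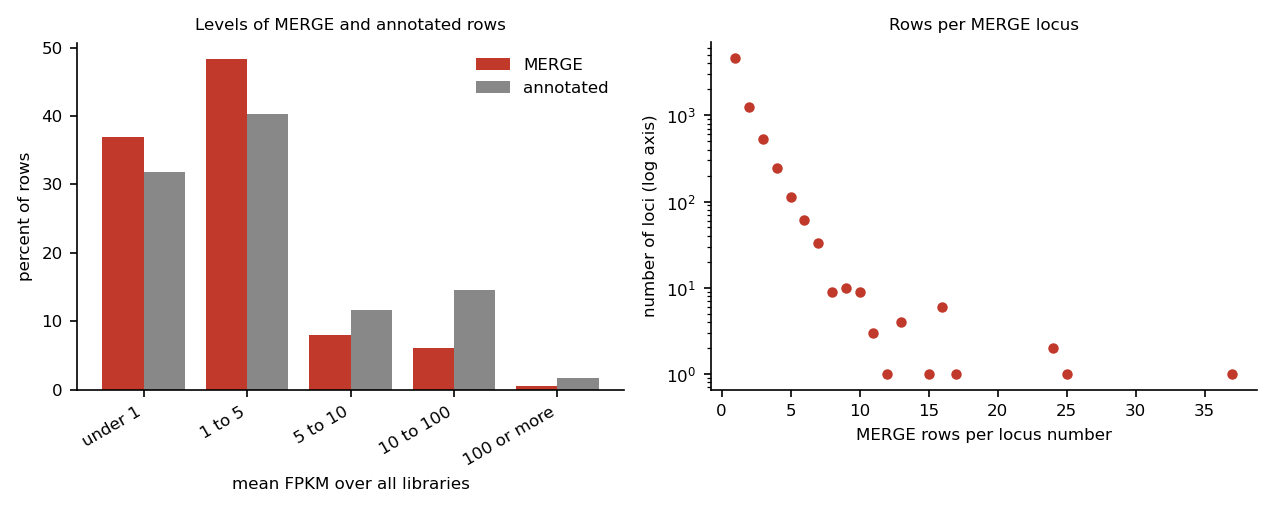
Left, the percent of 11443 MERGE rows (red) and 27824 annotated rows (grey) in 5 classes of mean FPKM over 30 libraries. Right, the number of loci (log axis) with a given number of MERGE rows. Of the MERGE rows, 37.0% lie under 1 FPKM, and 4589 loci hold 1 row while the fullest locus holds 37.

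MERGE rows were also absent from a library more often. Only 4133 MERGE rows (36.1%) were above 0 in all 30 libraries, against 19996 annotated transcripts (71.9%). MERGE rows at 0 in 15 or more libraries made up 12.9% of the set, against 3.30% of annotated rows. Of the 1348 MERGE rows at 0 in exactly 1 library, 555 were at 0 in AngII+BAI 1.

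A small number of rows held much of the FPKM. The 10 highest rows took 15.4% of all MERGE FPKM and the 100 highest took 38.1%. The 638 rows with a recovered length under 500 nt (5.58% of rows) took 14.9 to 28.3% of the MERGE FPKM in a library. They took 1.36 to 3.48% of the recovered MERGE reads in a library. This contrast is uncertain, since recovered lengths can be too short for rows high in every library. The highest row was MERGE.28758.1, with a mean of 2941 FPKM. It ranged from 864 FPKM in AngII+BAI 1 to 6936 FPKM in AngII+GAS 2. Its recovered length of 103 nt is poorly determined, because every library holds many reads of the row. Its levels followed mt-Nd5, a subunit of respiratory complex I encoded in the mitochondrial genome, with Pearson r = 0.95 over 30 libraries. This was the closest of 18969 annotated transcripts compared, a description without a test, since depth and tissue makeup are shared by both values. Its r with the mean of the 7 listed markers of the mitochondrial genome was 0.273.

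The other rows among the 10 highest had different partners. Their recovered lengths can also be too short. MERGE.21486.10, of 389 nt, averaged 467 FPKM and followed Col1a1, the main collagen chain of the vessel wall, with r = 0.94. Its mean was 261 ± 51.7 FPKM (SD, n = 5) in Control and 575 ± 191 FPKM in AngII. The 5 Control values of 210 to 330 FPKM lay below the 5 AngII values of 359 to 829.2 FPKM, and AngII+BAI 5 reached 1759 FPKM. The row was not among those called by limma in AngII against Control. MERGE.15989.1, of 483 nt, averaged 544 FPKM and varied from 40.5 FPKM in AngII+VAL 2 to 1862 FPKM in AngII+ETH 5. Its closest annotated transcript was CT010467.1, annotated as ribosomal RNA at chr17:39846353-39848201 (mm10, minus strand), with r = 0.84. MERGE.28015.3, of 311 nt, averaged 691 FPKM, and its closest transcript was Map4k3, a protein kinase (r = 0.86). In most libraries MERGE.28015.3 lay between 244 and 1102 FPKM, but it was at 2.03 FPKM in Control 4, 0.555 FPKM in AngII+BAI 1 and 1.14 FPKM in AngII+GAS 5. MERGE.8310.2, of 201 nt, averaged 732 FPKM and was closest to Anln, an actin-binding protein of dividing cells (r = 0.83). The remaining 5 of the 10 highest rows all belonged to locus MERGE.204.

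Ranked by recovered reads, rows of longer recovered length led. A row whose length was recovered too short is ranked too low here. MERGE.3924.2, of 2260 nt, had the most reads at 73987 ± 132053 (SD, n = 30) per library, from 0 to 527465. MERGE.617.8, of 3478 nt, followed with 46126 ± 26070 reads, from 1 to 104019. Both rows were thus nearly absent from some libraries and abundant in others.

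The MERGE rows held between 8.79% (AngII+BAI 1) and 13.5% (AngII 3) of the summed FPKM of a library, with a median of 11.2%. Counted as recovered reads the share was 10.5 to 16.1%. MERGE reads rest on recovered lengths, so rows high in every library can be undercounted, while annotated reads rest on GENCODE lengths. By group the FPKM share was 11.03 ± 0.83% (SD, n = 5) in Control, 12.3 ± 0.655% in AngII, 11.4 ± 1.03% in AngII+ETH, 10.5 ± 1.71% in AngII+BAI, 11.1 ± 1.04% in AngII+GAS and 10.7 ± 0.952% in AngII+VAL. The 5 AngII libraries lay at 11.8 to 13.5% and the 5 Control libraries at 9.69 to 11.8%, with the groups just apart. The AngII share was 1.32 percentage points higher than that of Control (exact two-sided permutation test, p = 0.00794, the smallest this design gives, adjusted over 5 comparisons 0.0397). No compound group differed from AngII past the threshold of 0.05 in this share, with differences of -0.955 for AngII+ETH (adjusted exact p = 0.135), -1.86 for AngII+BAI (0.129), -1.25 for AngII+GAS (0.0794) and -1.61 for AngII+VAL (0.0794). Without AngII+BAI 1 the AngII+BAI difference was -1.44 (0.159).

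**Figure D2:**
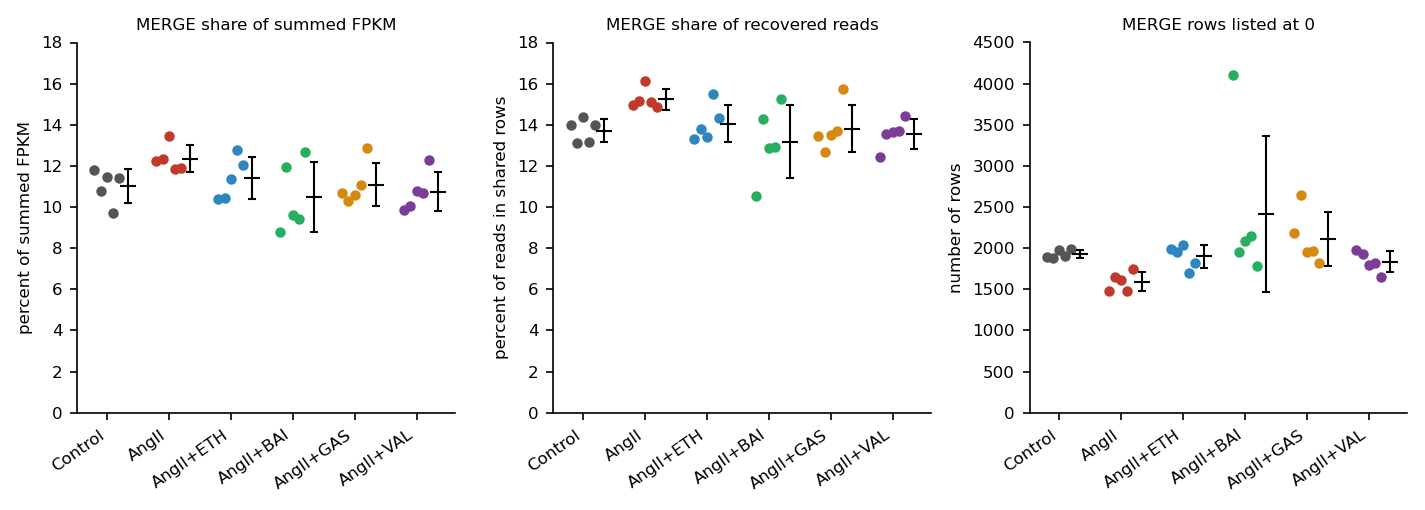
Each point is a library, grouped by treatment, with the mean and SD of 5 libraries as a bar to the right. The panels give the MERGE share of summed FPKM in percent, the MERGE share of recovered reads in percent, and the number of MERGE rows at 0. AngII lies highest in both shares and AngII+BAI 1 stands apart with 4100 rows at 0.

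The share moved with what it was divided by and with the list. Annotated mitochondrial transcripts took 10.4 to 25.4% of the FPKM of a library. They averaged 20.3 ± 1.41% in Control and 15 ± 4.28% in AngII (SD, n = 5). Without them in the denominator, the AngII difference was 0.70 points (adjusted exact p = 0.258). All MERGE rows were kept there, among them MERGE.28758.1, whose levels followed mt-Nd5. Without the 100 highest rows the AngII difference was 0.47 points (0.452). With each library taken over its own group's list, in place of the list that AngII secures, it was 1.09 points (0.119). Counted as reads, the AngII share was 15.2 ± 0.52% against 13.7 ± 0.561% in Control (adjusted exact p = 0.0198). Restricted to rows averaging at least 1 FPKM, the read difference was 1.23 points (0.0198). Both read values use the list that AngII secures, which favours a higher share in AngII. All read shares carry the limit of the recovered lengths, and its effect on differences between groups was not tested. In reads, all 4 compound groups lay below AngII over the list that AngII secures, which favours that direction, by -1.18 points in AngII+ETH (adjusted exact p = 0.0476), -2.07 in AngII+BAI (0.0476), -1.43 in AngII+GAS (0.0476) and -1.68 in AngII+VAL (0.0198). Among rows of that same list averaging at least 1 FPKM, the AngII+VAL read share differed by -1.37 points (adjusted exact p = 0.0198). The other 3 compound groups had adjusted exact p values of 0.0873. This filter keeps the choice of rows through AngII, so these values are no independent support for a lower share. Over each group's own list, computed in FPKM and not in reads, the differences were -0.584 in AngII+ETH (adjusted exact p = 0.341), -1.48 in AngII+BAI (0.169), -0.886 in AngII+GAS (0.169) and -1.14 in AngII+VAL (0.169).

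The 11443 rows fell into 6883 loci. A single row was present at 4589 loci (66.7%, exact Clopper-Pearson 95% interval 65.5 to 67.8%), 2 rows at 1259, 3 rows at 533 and 5 or more at 255. The 2294 loci with several rows held 6854 of the rows. Rows at such loci were longer, with a median of 3303 nt against 2144 nt for rows alone at their locus, and higher, with a median of 1.46 against 1.19 FPKM. MERGE.20974 had the most rows, 37, followed by MERGE.10809 with 25. At 3680 loci the row numbered 1 was not among the members, and row numbers ran up to 59, so the catalogue holds more rows than the list shows.

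Within a locus, the row that was highest changed from library to library. At the 1661 loci with several rows and a sum above 0 in all 30 libraries, the highest row took a median of 73.3% of the locus. The same row was highest in all 30 libraries at only 124 of these loci (7.47%), and in all 6 group means at 721 (43.4%). Locus sums were steadier than rows. Among 1177 loci averaging at least 5 FPKM, the median coefficient of variation within a group was 32.6 to 55.7% for the locus sum and 56.3 to 75.3% for the highest row, the larger values in both cases from AngII+BAI. The highest row varied more than the sum at 923 to 980 of the 1177 loci, depending on the group. At 643 loci with 1 row and at least 5 FPKM, the corresponding median was 39.5 to 61.4%.

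Locus MERGE.204 had the highest sum, and its leading row changed often. Its 15 rows summed to 1417 FPKM in AngII+BAI 1 and up to 7887 FPKM in Control 2, with a mean of 4493 FPKM over 30 libraries. No fewer than 9 different rows were the highest in some library. MERGE.204.28 stood at 4686 FPKM in Control 3 and 4430 FPKM in AngII+VAL 3, but at 0 in Control 4, AngII 3 and AngII+ETH 1. MERGE.204.5 stood at 3251 FPKM in Control 5 and 3821 FPKM in AngII+ETH 3, but at 0 in Control 2. MERGE.204.1 and MERGE.204.29 were at 0 in 12 and 11 libraries. In contrast, MERGE.28758.1 was the highest of the 9 rows of its locus in all 30 libraries.

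**Figure D3:**
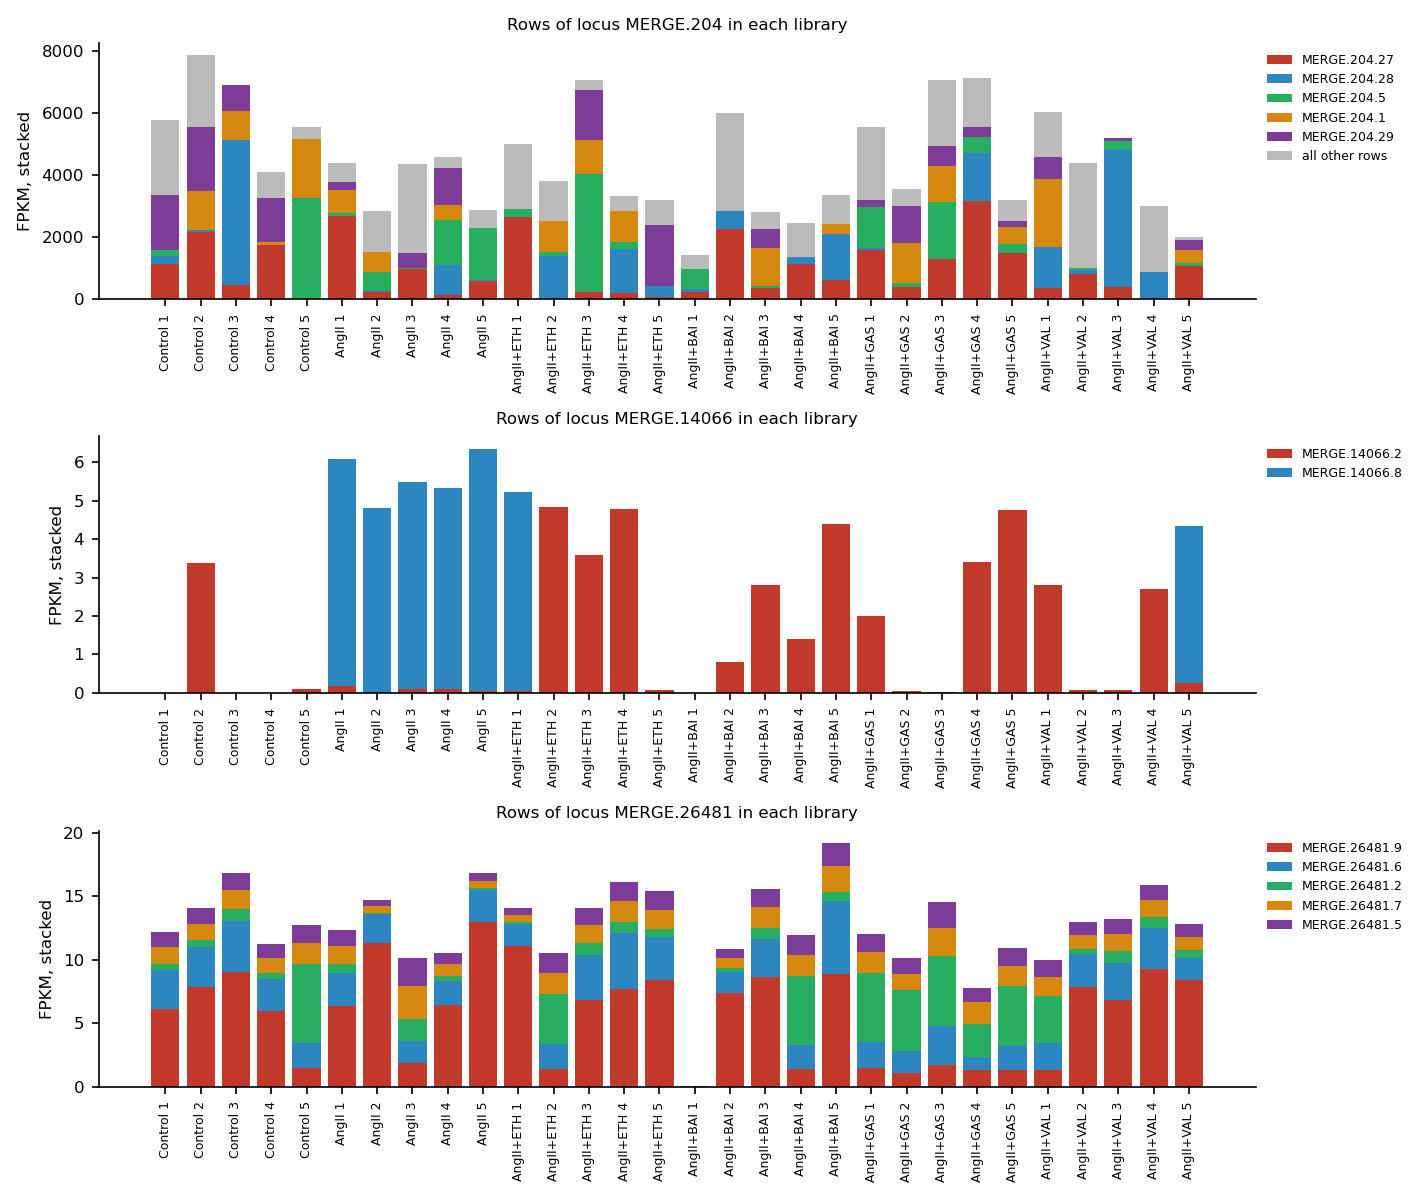
Stacked bars give the FPKM of each row in each of 30 libraries for loci MERGE.204 (5 highest rows and all others), MERGE.14066 and MERGE.26481. The colours change from library to library at MERGE.204, and MERGE.14066.8 fills the bar in all 5 AngII libraries while MERGE.14066.2 fills it in most others where the locus is detected.

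Differences between the groups were tested with limma on log2(FPKM + 1) over all 33301 rows with at least 1 FPKM in at least 5 libraries, of which 9825 were MERGE rows. The median standard error of a log2 fold change was 0.43 for MERGE rows and 0.31 for annotated rows.

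In AngII against Control, 2 MERGE rows were higher and 0 lower, where 0.00901% of all rows tested were called (0.00901% higher). The ranges of the groups did not overlap for 171 MERGE rows (1.74%), against 2.21% of all rows, and 728 (7.41%) had an unadjusted p under 0.05, against 7.85%. The median log2 change was 0.10 for MERGE rows and 0.09 for all rows, and it came to about 0 for both after quantile normalization.

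MERGE.14066.8, of 4104 nt, was listed at 5.92, 4.81, 5.37, 5.22 and 6.31 FPKM in the 5 AngII libraries and at 0 in all 5 Control libraries. Among the remaining 20 libraries it was at 5.18 FPKM in AngII+ETH 1, 4.08 FPKM in AngII+VAL 5, 0.01265 FPKM in AngII+BAI 3 and 0 in the others. It was present in every AngII library and in few others. The AngII mean was at least 579.5-fold higher than Control, taking 3 reads in each Control library as the floor, and the fitted log2 fold change was 2.70 ± 0.40 (SE, limma adjusted p = 0.00566). Against AngII it was lower in AngII+BAI (log2 -2.70, adjusted p = 0.00386) and AngII+GAS (-2.70, adjusted p = 0.0113). In AngII+ETH the value was -2.18 (adjusted p = 0.169) and in AngII+VAL -2.23 (adjusted p = 0.0799). These 5 comparisons share the AngII libraries. The row is a member only through its AngII level, since it reached a mean of 0.5 FPKM in neither Control, AngII+BAI nor AngII+GAS. A row admitted that way had to be higher in AngII than in those groups, so its calls describe it and are no independent support for a difference.

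The other listed row of that locus was low wherever MERGE.14066.8 was high, but it was also low in many libraries without that row. MERGE.14066.2, of 7939 nt, was at 0.173 FPKM or less in all 5 AngII libraries, at 0.0905 FPKM or less in 4 Control libraries and at 3.39 FPKM in Control 2. It stood at 4.84, 3.60 and 4.78 FPKM in AngII+ETH 2, 3 and 4, where MERGE.14066.8 was at 0, while in AngII+ETH 5 both rows were at 0.0761 FPKM or less. The locus sum was 5.62 ± 0.615 FPKM (SD, n = 5) in AngII, 0.697 ± 1.51 in Control, 3.70 ± 2.12 in AngII+ETH and 1.88 ± 1.74 in AngII+BAI. The 5 AngII sums lay at 4.82 to 6.36 FPKM and the Control sums at 0.00162 to 3.39 FPKM, without overlap, and the sum was not called in the fit of locus sums. The closest annotated transcript to MERGE.14066.8 was Lrrn2, a leucine-rich repeat membrane protein, with r = 0.72. With neuron and skeletal muscle marker means as terms, its log2 difference from Control was 2.72 and its adjusted p 0.0801, and that of AngII+GAS from AngII was -2.62 with an adjusted p of 0.0563, so both calls were lost. The neuron mean was low in AngII 2 and AngII 3, where MERGE.14066.8 stood at 4.81 and 5.37 FPKM.

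MERGE.29439.1, of 528 nt and alone at its locus, was listed at 2.26, 3.96, 5.92, 2.57 and 2.90 FPKM in AngII. It was at 0 in 4 Control libraries and at 0.955 FPKM in Control 2, so the groups did not overlap. With a Control mean of 0.191 FPKM, it is listed for Control through its AngII level, and its call carries the same limit. Its log2 fold change was 1.93 ± 0.26 (SE, limma adjusted p = 0.00264). The 20 libraries of the compound groups were all above 0, at 0.743 to 4.69 FPKM. With neuron and skeletal muscle terms the log2 change was 2.26 (adjusted p = 0.00229), and with only the Control and AngII libraries in the fit it was 1.93 (adjusted p = 0.128).

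**Figure D4:**
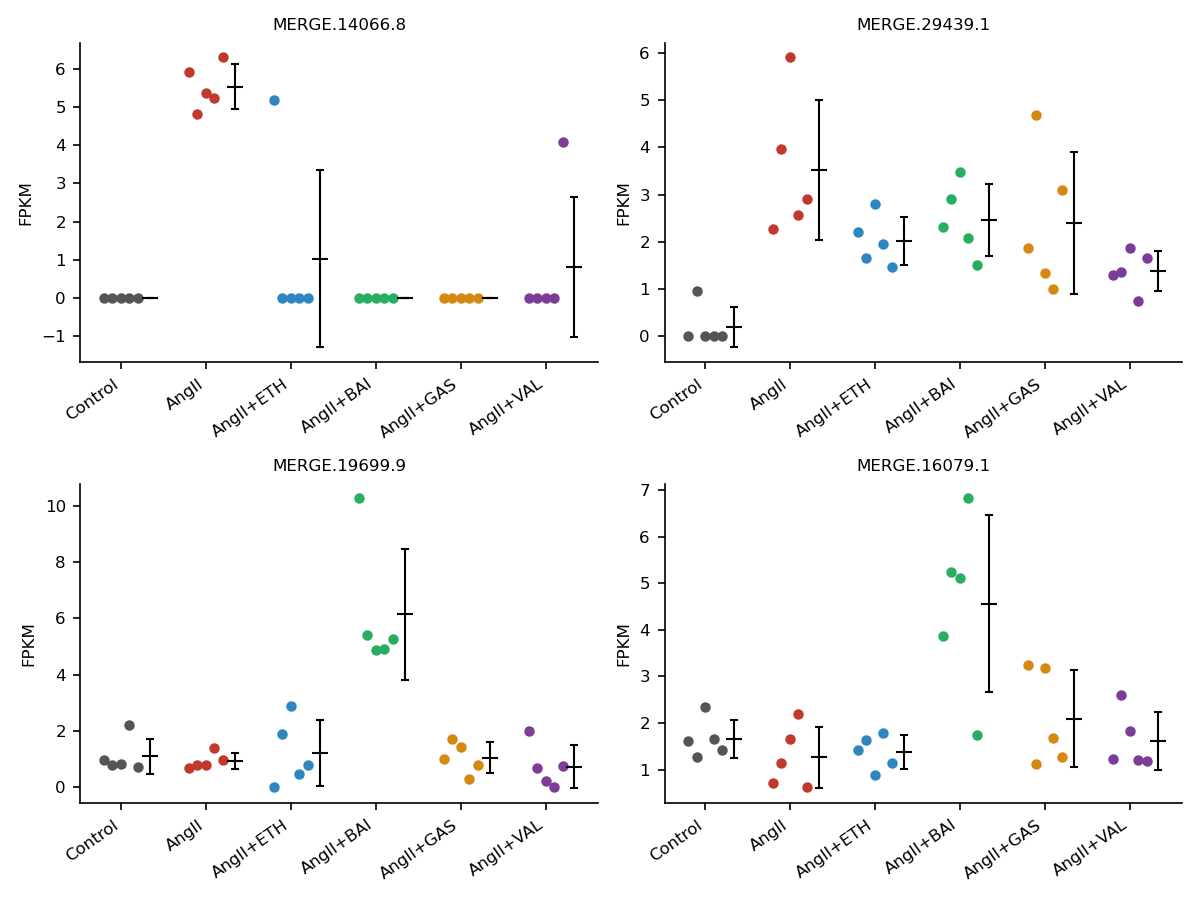
FPKM of the 4 MERGE rows called in a pairwise comparison, 1 point per library by group, with the mean and SD of 5 libraries. MERGE.14066.8 lies at 4.81 to 6.31 in AngII and at 0 in Control, MERGE.29439.1 is at 0 in 4 Control libraries, and MERGE.19699.9 and MERGE.16079.1 are highest in AngII+BAI.

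No MERGE row was called lower in AngII. The rows of smallest p in that direction were MERGE.18835.2, with 0.909 to 3.68 FPKM in Control and 0.103 to 1.27 in AngII (log2 -1.11, adjusted p = 0.219), and MERGE.3400.7, with 1.60 to 5.08 FPKM in Control and 0.0627 to 1.49 in AngII (log2 -1.44, adjusted p = 0.323). The groups overlapped for MERGE.18835.2 and not for MERGE.3400.7. With an AngII mean of 0.433 FPKM, MERGE.18835.2 is a member through the other groups, so its difference is a description. At MERGE.3400 another row, MERGE.3400.9, stood at 0.903 to 6.04 FPKM in AngII.

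In AngII+ETH against AngII, limma called 0 MERGE rows and 0% of all rows, with 402 MERGE rows at an unadjusted p under 0.05. Those are 4.09% of the MERGE rows tested, against 3.63% of all rows, and ranges did not overlap for 59 (0.601%), against 0.562%. MERGE.21593.3, of 2474 nt, was listed at 8.81, 6.55, 7.48, 7.93 and 22.0 FPKM in AngII and at 0 in all 5 AngII+ETH and all 5 AngII+VAL libraries, with fitted log2 changes of -3.40 (adjusted p = 0.334 and 0.197). It is listed for those 2 compound groups only through its AngII level, so these values are a description. Against the floor of 3 reads per library, AngII was at least 678.3-fold higher than AngII+ETH and at least 665.8-fold higher than AngII+VAL. Control 5, at 20.5 FPKM, and AngII+BAI 5, at 6.80 FPKM, also carried this row. Its locus sum over 3 rows was 20.2 ± 10.7 FPKM (SD, n = 5) in AngII, 16.7 ± 15.2 in AngII+ETH and 21.1 ± 15.3 in AngII+VAL, so the sums overlapped widely. MERGE.3582.2 had the smallest p among rows higher in AngII+ETH, with 14.6 to 27.7 FPKM against 0.179 to 7.15 in AngII (log2 3.38, adjusted p = 1.00). Its locus sum was 27.1 ± 2.16 FPKM in AngII+ETH and 18.1 ± 11.3 in AngII.

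In AngII+BAI against AngII, 2 MERGE rows were higher and 1 lower, where 0.0901% of all rows were called (0.00901% higher, 0.0811% lower). Non-overlapping ranges were seen for 133 MERGE rows (1.35%) and 1.59% of all rows, and 1029 (10.5%) had an unadjusted p under 0.05, against 11.6%. MERGE.19699.9, of 2102 nt, was listed at 10.3, 5.41, 4.86, 4.90 and 5.27 FPKM in AngII+BAI and at 0.682 to 1.39 FPKM in AngII. It was at 0 to 2.87 FPKM in the other 20 libraries, so AngII+BAI stood above every other group. The log2 change from AngII was 1.85 ± 0.31 (SE, limma adjusted p = 0.0208). The other listed row of its locus, MERGE.19699.4, was at 0.0111 to 2.13 FPKM in AngII+BAI and 0 to 7.79 FPKM in AngII. The locus sums lay at 5.43 to 10.4 FPKM in AngII+BAI and 0.682 to 8.56 FPKM in AngII. They overlapped, and the sum was not called in the fit of locus sums. Smooth muscle means were 6.79 and 7.16 in AngII+BAI 3 and 5. Without these libraries the change of MERGE.19699.9 was 1.98 (limma adjusted p = 0.0341). The call was lost with a pseudocount of 0.1 (adjusted p = 0.139), array weights (0.124), neuron and muscle terms (0.134), only the compared groups (0.069), and without AngII 1 (0.0615) or AngII 5 (0.0616).

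MERGE.16079.1, of 1530 nt and alone at its locus, was listed at 3.87, 5.24, 5.11, 6.83 and 1.73 FPKM in AngII+BAI and at 0.626 to 2.19 FPKM in AngII, with 1 AngII+BAI library inside the AngII range. The log2 change was 1.26 ± 0.26 (SE, limma adjusted p = 0.0497), and it missed the threshold in 29 of 39 alternatives. Its closest transcript was Ppp1r14b, an inhibitor of protein phosphatase 1, with r = 0.73. MERGE.28412.5 had 0 to 1.03 FPKM in AngII+BAI and 0.978 to 3.59 in AngII (log2 -1.003, adjusted p = 0.0659), and its adjusted p was 0.0474 without AngII+BAI 1. Its AngII+BAI mean was under 0.5 FPKM, so it is listed there through its AngII level and these values are a description.

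The number of rows called against AngII+BAI changed with single libraries. It was 4 without AngII+BAI 1 (3 of them lower), 19 without AngII+BAI 2 (17 lower), 5 without AngII+BAI 5 (3 lower), 6 without AngII 3 (4 lower), and 1, lower, without AngII 1 or without AngII 5. With a pseudocount of 0.1 all 5 rows called were lower, and with neuron and muscle terms all 3 were, so the split of 2 higher and 1 lower depends on the setting. Summed by locus, 8 MERGE loci were called, where 0.202% of 19299 locus and gene sums were, and 1 of them, MERGE.16079, was higher. At the 7 others the row of smallest p had not been called. MERGE.12264, with 4 rows, summed to 17.3 ± 9.73 FPKM (SD, n = 5) in AngII and 0.427 ± 0.587 in AngII+BAI (log2 -3.38, limma adjusted p = 0.0391). Its AngII+BAI sums of 0 to 1.24 FPKM met the AngII range only at AngII 5, with 1.23 FPKM. With a mean sum under 0.5 FPKM in AngII+BAI, its rows are listed there only through their AngII levels. They had to be higher in AngII, so this call is a description. MERGE.10216, with 2 rows, summed to 3.41 to 3.94 FPKM in AngII and 0.325 to 2.62 in AngII+BAI (log2 -1.09, adjusted p = 0.0391), and MERGE.22498, with 3 rows, to 5.68 to 12.5 and 0 to 6.84 (log2 -2.34, adjusted p = 0.0391). The other called sums were MERGE.15002, MERGE.17048, MERGE.28044 and MERGE.6564, with log2 changes of -1.95, -0.83, -1.05 and -1.47. MERGE.28044, with 1 row, averaged 0.335 FPKM in AngII+BAI and carries the same limit as MERGE.12264. AngII+BAI 1, with the most rows at 0, was the lowest AngII+BAI library at MERGE.12264, MERGE.15002, MERGE.17048, MERGE.28044 and MERGE.6564. It was not the lowest at MERGE.10216 and MERGE.22498. The fit of locus sums was not repeated without this library.

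In AngII+GAS against AngII, MERGE.14066.8 was the 1 row called, lower in AngII+GAS and, as said, a member through its AngII level, where 0.00601% of all rows were called (0.00601% lower). Non-overlapping ranges were seen for 123 MERGE rows (1.25%), against 1.52% of all rows, and 756 (7.69%) had an unadjusted p under 0.05, against 9.24%. Summed by locus, MERGE.21131 was called, where 0.0155% of sums were. Its 2 rows summed to 12.4, 16.4, 29.4, 14.3 and 13.5 FPKM in AngII and to 2.74, 4.61, 4.84, 3.50 and 7.93 FPKM in AngII+GAS, without overlap (log2 -1.67 ± 0.28, limma adjusted p = 0.0358). Control sums were 4.01 to 10.1 FPKM. Neither row was called alone, and MERGE.21131.2 had an adjusted p of 0.213. MERGE.26481.2 was listed at 5.36, 4.85, 5.51, 2.63 and 4.75 FPKM in AngII+GAS and at 0.0868 to 1.73 in AngII (log2 1.87, adjusted p = 0.321). Another of its 5 rows, MERGE.26481.9, was at 1.09 to 1.75 FPKM in AngII+GAS and at 1.84 to 13.0 in AngII, and the locus sum was 11.1 ± 2.48 and 12.9 ± 2.84 FPKM (SD, n = 5). The sums overlapped, while the leading row differed in all 5 AngII+GAS libraries from that of most AngII libraries. MERGE.8639.8 was at 3.11, 6.02, 15.3, 0.520 and 19.8 FPKM in AngII+GAS and 0.0332 to 1.81 in AngII (log2 2.12, adjusted p = 0.269), and its adjusted p was 0.0244 without AngII+GAS 4.

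In AngII+VAL against AngII, limma called 0 MERGE rows, where 0.003% of all rows were called. There were 769 MERGE rows (7.83%) at an unadjusted p under 0.05, against 8.61% of all rows, and 198 (2.02%) with non-overlapping ranges, against 2.43%. MERGE.4141.5, of 5969 nt, was listed at 42.6, 27.6, 0.509, 6.86 and 10.1 FPKM in AngII+VAL and at 0 to 0.00442 FPKM in AngII (log2 3.46, adjusted p = 0.197). Its closest transcript was Cacna1s, the voltage sensor of skeletal muscle contraction, with r = 0.83, and its r with the skeletal muscle marker mean was 0.76. The muscle mean ranged from 5.39 to 6.83 in AngII+VAL and from 0.879 to 2.79 in AngII, without overlap. With neuron and muscle terms in the fit, the log2 difference of MERGE.4141.5 was 1.56 with an unadjusted limma p of 0.0964. Since it was near 0 in AngII, the row is a member through the other groups, and its difference is a description. MERGE.25655.7 was listed at 6.87 to 20.4 FPKM in AngII+VAL and 0 to 7.87 in AngII (log2 2.08, adjusted p = 0.197), with 1.55 after the same terms.

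Over the 6 groups together, the moderated F test called 3 MERGE rows, MERGE.14066.8 (adjusted p = 0.0131), MERGE.29439.1 (0.0176) and MERGE.19699.9 (0.0213), where 0.03% of all rows were called. The last was not called in the F test without AngII+BAI 1 (limma adjusted p = 0.0982), AngII+BAI 3 (0.0633), AngII+BAI 5 (0.0764) or AngII+BAI 3 and 5 together (0.111), nor with a pseudocount of 0.1 (0.222), median-ratio scaling (0.057) or array weights (0.0841). An unadjusted p under 0.05 was found for 880 MERGE rows (8.96%), against 10.6% of all rows. Summed by locus, MERGE.29439 was the 1 MERGE locus called in the F test and in AngII against Control, where 0.00518% of 19299 sums were called in each.

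Some MERGE rows followed markers of a cell type closely across libraries. These correlations describe 30 libraries that share treatment and tissue makeup and carry no test. A Pearson r above 0.8 with the neuron marker mean was found for 31 MERGE rows (0.316%), against 1.08% of annotated rows. The annotated rows include transcripts of the marker genes themselves, which no MERGE row can be, so the comparison favours annotated rows. The MERGE share was the smaller one for every list with such rows. It was 0.204% (20 rows) against 0.886% for brown adipocytes, 0.142% (14 rows) against 1.24% for macrophages and 0.132% (13 rows) against 0.332% for smooth muscle. For skeletal muscle it was 0.102% (10 rows) against 0.251%, for Schwann cells 0.0916% (9 rows) against 0.682% and for fibroblasts 0.0611% (6 rows) against 0.332%. Lymphocytes had 4 rows (0.0407% against 0.204%) and erythrocytes 1 (0.0102% against 0.0469%). There were 0 MERGE rows above 0.8 for endothelial cells, white adipocytes, kidney, adrenal gland and the mitochondrial genome, where annotated rows numbered 0, 2, 0, 1 and 0. The adrenal mean rests on 1 of 5 markers, Star, at group means of 0.879 to 1.43 FPKM, and the kidney mean on 3 of 5. Neither mean says much about its tissue.

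MERGE.6761.1, of 1288 nt, followed the neuron markers with r = 0.99. It was listed at 15 FPKM in AngII 1, at 4.07 and 16.7 FPKM in AngII 4 and 5, and at 10.4 FPKM in AngII+ETH 1, and at 0.0396 and 0.0819 FPKM in AngII 2 and AngII 3. Its closest annotated transcript was Sult4a1, a sulfotransferase of nervous tissue (r = 0.99). MERGE.22910.1 followed the Schwann cell markers with r = 0.92, reaching 26.9 FPKM in an AngII library against 0.989 FPKM in another. MERGE.25342.27, of 3909 nt, followed the skeletal muscle markers with r = 0.92 and Atp2a1, the calcium pump of fast muscle, also with r = 0.92. It reached 183 FPKM in Control 2, 132 in AngII+BAI 3 and 101 in AngII+VAL 4, against 0.412 to 3.30 FPKM in AngII. MERGE.8360.10 followed Ckm, muscle creatine kinase, with r = 0.95. Ckm is itself on the muscle list.

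**Figure D5:**
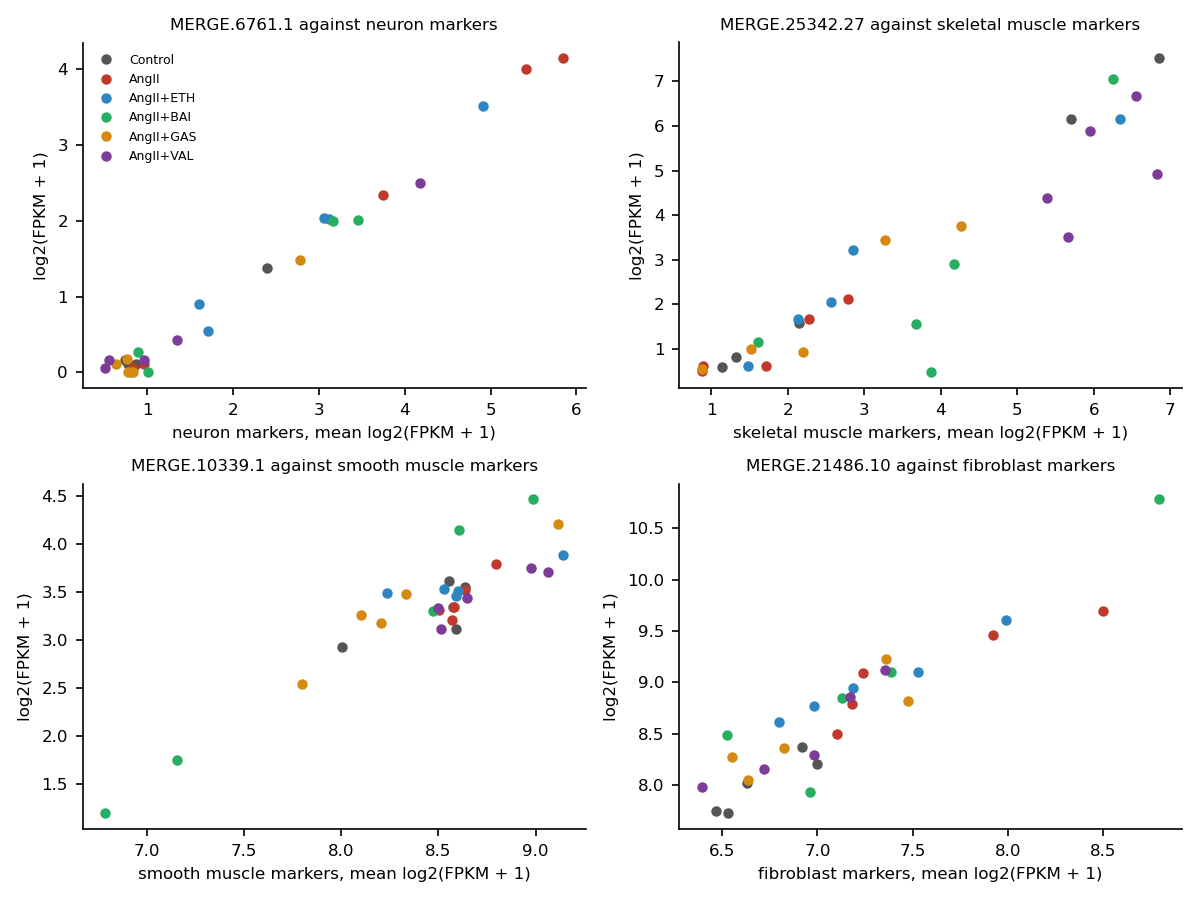
Each panel plots log2(FPKM + 1) of a MERGE row against the mean log2(FPKM + 1) of a marker list, 1 point per library, coloured by group. The rows MERGE.6761.1, MERGE.25342.27, MERGE.10339.1 and MERGE.21486.10 follow neuron, skeletal muscle, smooth muscle and fibroblast markers with r of 0.99, 0.92, 0.92 and 0.93.

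Other MERGE rows followed markers of the vessel wall itself. MERGE.10339.1, of 1424 nt, followed the smooth muscle markers with r = 0.92 and Cnn1, the actin-binding protein calponin, with r = 0.95. It was listed at 6.62 to 21.1 FPKM in most libraries and at 1.29, 2.36 and 4.82 FPKM in AngII+BAI 3, AngII+BAI 5 and AngII+GAS 1. MERGE.16432.1, of 3155 nt, followed Synpo2, an actin-associated protein of smooth muscle, with r = 0.94 and averaged 24.1 FPKM. MERGE.12734.1, of 3940 nt, followed Col6a1, a chain of collagen VI, with r = 0.89 and averaged 32.9 FPKM. Among immune markers, MERGE.28305.1 followed Ly86 and MERGE.28139.1 followed Ctsc, cathepsin C, with r of 0.94 and 0.95. MERGE.28305.1 ranged from 0.278 to 4.55 FPKM. MERGE.12747.3, at 0 to 15 FPKM, led the rows that followed the brown adipocyte markers (r = 0.88) and was closest to Slc27a2, a fatty acid transporter (r = 0.94). Cnn1 and Col1a1 are on the marker lists used, so these correlations and those with the list means are not independent.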

How the data were processed

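The values are FPKM per transcript as the authors deposited them, 1 table per library. The unit was taken from the values, and the aligner, assembler and quantifier are not given in the sources used here. Per the submitters' processing notes, mm10 and limma were used. RNA was extracted with the mirVana kit and depleted of ribosomal RNA, and libraries were built with the NEB Next Ultra kit, per the labels' protocols. Of the low values, 98.3 to 98.6% were whole multiples of 1 read within 0.1 read. This gave library sizes and row lengths, which assume that the authors' quantifier worked in whole reads. Each row length is the smallest that fitted, and it can be too short for rows with many reads in every library. The recovered counts may be rounded estimates, so no count test was run.

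The members and lists were chosen with earlier results of these data known. MERGE rows and annotated transcripts were tested together with limma 3.58.1 in R 4.3.3 on log2(FPKM + 1), with trend and robust settings, all 30 libraries, rows of at least 1 FPKM in at least 5 libraries, and Benjamini-Hochberg adjustment over 33301 rows. Shares were compared by exact permutation of 5 against 5 libraries, whose smallest p is 0.00794, adjusted over 5 comparisons. Named rows are, per comparison and direction, up to 5 of smallest p past the threshold with at least 5 FPKM and no overlap, otherwise the 2 of smallest p averaging at least 1 FPKM, plus the 10 highest rows, the 3 loci with most rows and the 3 with the highest sums. The annotated transcript of highest r is given for part of these rows. Rows named for reads per row, locus sums, marker correlation or as partners at a locus, and MERGE.29439.1 in the F test, were chosen after their values were seen. Annotated transcripts were matched to GENCODE M21 (27785 of 27824).

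The alternatives were a pseudocount of 0.1, no filter, a filter on the overall mean, quantile and median-ratio scaling, array weights, marker terms, locus sums, only the compared groups, other lists and denominators for the share, and leaving out each library. Figures were drawn with matplotlib 3.10.9. The interval for a share of loci covers counting error only.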

Additional observations from a re-analysis of the deposited data

Results flagged for a closer look

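In 7 of 28 groups of 5 libraries checked, 1 library lay far from the others. Chance gives about 1 in 20 where values vary freely, but in 4 of the 7 the other libraries of the group were all at 0, so that any value above 0 stands apart, and this rate does not apply. AngII+BAI 1 had 4100 MERGE rows at 0, and the nearest library of its group had 2144. MERGE.14066.8 was at 5.18 FPKM in AngII+ETH 1 and at 4.08 FPKM in AngII+VAL 5 with the other 4 libraries of each group at 0, and at 0.01265 FPKM in AngII+BAI 3. MERGE.19699.9 was at 10.3 FPKM in AngII+BAI 1, above the next value of 5.41 FPKM, and at 2.19 FPKM in Control 4, above 0.963 FPKM. MERGE.29439.1 was at 0.955 FPKM in Control 2 and at 0 in the other Control libraries.

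Rows outside the members also carried signal. A set of 68 MERGE rows was listed for all 4 compound groups but not for Control and AngII, 43.3% of the 157 rows with that pattern. Such rows had a median level of 1.11 FPKM over the compound libraries. Their Control and AngII values are not given. If the listing rule also holds for unlisted rows, their means in both groups were under 0.5 FPKM.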

How the results depend on the processing

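Only the rows named per comparison and the shares were followed through the alternatives, and none of their differences changed sign. The split of calls in AngII+BAI did change, from 2 higher and 1 lower in the main fit. It was 0 and 5 with a pseudocount of 0.1, 1 and 7 by locus sums, 0 and 3 with marker terms and 2 and 17 without AngII+BAI 2. For the FPKM share, the AngII difference from Control was 0.70 without annotated mitochondrial transcripts and 0.47 without the 100 highest rows. It was 1.09 over each group's own list and 1.12 over rows averaging at least 1 FPKM (both chosen after seeing the data). None of these passed the threshold. In reads, the share differed from AngII by -1.18 in AngII+ETH, -2.07 in AngII+BAI, -1.43 in AngII+GAS and -1.68 in AngII+VAL, all past the threshold. These read shares use the list that AngII secures, which favours that direction. Over rows of that list averaging at least 1 FPKM, the AngII+VAL read difference was -1.37, also past the threshold and with the same limit. Read shares rest on recovered lengths, which can be too short for rows high in every library. Leaving out 1 library gave share differences of 0.983 to 1.51 for AngII against Control (adjusted exact p 0.0397 to 0.0794, with fewer libraries), -1.30 to -0.678 for AngII+ETH, -2.41 to -1.44 for AngII+BAI, -1.70 to -0.976 for AngII+GAS and -2.0002 to -1.33 for AngII+VAL. Without AngII+GAS 5 or AngII+VAL 5, those 2 groups passed the threshold (adjusted exact p = 0.0198). Over MERGE rows listed in any file, 62.2% of 8227 loci held 1 row.

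The counts of called MERGE rows moved as follows. AngII against Control gave 1 with marker terms and 1 by locus sums. AngII+ETH gave 1 with marker terms and 2 with only the compared groups. AngII+BAI gave 5 with a pseudocount of 0.1, 5 with no filter, 1 with array weights, 8 by locus sums and 6 without AngII+BAI 3 and 5 together. AngII+GAS gave 2 with only the compared groups and 1 with marker terms, where it was not MERGE.14066.8 (adjusted p = 0.0563). AngII+VAL gave 2 with marker terms and 9 with only the compared groups. The F test gave 1 with a pseudocount of 0.1 and 1 by locus sums. Leaving out 1 library gave 2 to 3, 0 to 1, 1 to 19, 0 to 4 and 0 to 1 rows in the 5 comparisons and 2 to 7 in the F test. AngII+GAS gave 4 without AngII 3 and 0 without AngII 1, and AngII+ETH and AngII+VAL each gave 1 without Control 5, AngII+ETH 1 or AngII+VAL 5. The causes were not tested. The 5th percentile of mean reads per MERGE row was 26.5, which limits what a 0 shows for the lowest rows. No paired analysis was possible because the labels give no replicate numbers shared between groups.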

Other observations

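MERGE rows listed for 1 compound group alone were not analysed for differences, since the other libraries give no value for them. They numbered 298 for AngII+ETH, 590 for AngII+BAI, 369 for AngII+GAS and 290 for AngII+VAL, which is 38.5%, 32.9%, 41.9% and 40.5% of all rows listed for that group alone. The highest of them often stood in 1 library. MERGE.12657.4 was at 60.8 FPKM in AngII+ETH 3 and at 0.0245 FPKM or less in the other AngII+ETH libraries. MERGE.28758.9 was at 239 FPKM in AngII+BAI 3 and at 0 in the other 4. MERGE.2666.4 was at 63.8 FPKM in AngII+GAS 1. MERGE.17348.1 was at 77.9 and 62.8 FPKM in AngII+VAL 1 and AngII+VAL 5 and at 0 in the other 3. Among the 68 rows listed for all compound groups but not for Control and AngII, MERGE.27266.15 was highest, at 102 FPKM in AngII+ETH 4 and 0 in AngII+BAI 1.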
